A study of Homo sapiens with 6 samples.

Results

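The nuclear-encoded subunits of respiratory complexes I to IV were examined in the human embryonic stem cell line H9 after knockdown of alpha satellite RNA. Members were the rows of the deposited gene table whose symbols follow the naming patterns of complex I (NDUFA, NDUFB, NDUFC, NDUFS and NDUFV), complex II (SDHA to SDHD), complex III (UQCR genes and CYC1) and complex IV (COX5 to COX8). This gave 64 of 53719 rows: 36 of complex I, 4 of complex II, 9 of complex III and 15 of complex IV, the last including NDUFA4, which carries a complex I name but is a complex IV subunit. The symbol pattern leaves out COX4I1, COX4I2 and NDUFAB1, which are given with the related gene lists.

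The control group was H9 cells transfected with a control gapmer, and the knockdown group was the same line transfected with an anti-ALR gapmer, ALR being alpha satellite RNA, with 3 libraries in each. A gapmer is an antisense oligonucleotide with a DNA core that lets RNase H cut the paired RNA, and alpha satellite is the tandem repeat of human centromeres. Both groups were kept in RSeT, a medium for a naive-type state, and total RNA was taken after 48 h. The letters a, b and c name the libraries of a group. The labels do not say whether these came from separate cultures, so p-values measure only the spread between these samples. Alpha satellite RNA itself was not analysed here, since no row is named for it, so the depth of the knockdown is not shown by these values.

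The respiratory chain passes electrons from NADH and succinate to oxygen in the inner mitochondrial membrane. Complex I takes electrons from NADH and complex II from succinate, both hand them to coenzyme Q, complex III passes them on to cytochrome c, and complex IV reduces oxygen. Complexes I, III and IV pump protons and combine nuclear subunits with subunits encoded in mitochondrial DNA, whereas complex II is wholly nuclear. Human pluripotent cells in the naive state are known for more mitochondrial respiration than primed cells, which lean on glycolysis.

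Total counts were 25087629 to 36576752 per library, and the member rows took 0.294%, 0.295% and 0.264% of them in knockdown a, b and c, against 0.277%, 0.278% and 0.276% in the controls. Knockdown library a stood apart by holding counts in 29678 rows against 25898 to 26788 in the others. Pluripotency genes were high (LIN28A 1528 to 1890 and NANOG 175 to 204 TMM-scaled CPM, read counts brought to a common library size by edgeR's TMM method), while SOX2 was listed at 0 in all libraries. The SOX2 row is not taken here as absence of its transcript, and the reason for its 0 was not tested. Markers of the naive state went against the medium's name only in part. KLF17 was at 0.0275 to 0.353, DPPA5 at 0.809 to 1.23, SUSD2 at 2.35 to 3.03 and DNMT3L at 1.35 to 2.99. Higher were TFCP2L1 at 23.9 to 32.2, DPPA3 at 18.1 to 21.9 and KLF4 at 16.5 to 19.1. Primed markers differed as well, with SALL2 at 103 to 134 and SFRP2 at 71.9 to 84.4. The primed markers ZIC2 and DUSP6 were lower, at 9.47 to 13.4 and 8.57 to 10.96. The 8 pluripotency markers summed to 5724 to 6338 in knockdown and 5570 to 5648 in control libraries, without overlap. Most of this sum was DNMT3B (1898 to 2170, edgeR adjusted p = 0.488) and LIN28A (edgeR adjusted p = 0.269). POU5F1, at 87.8 to 152, had the largest log2 fold change of the list, 0.42 (edgeR adjusted p = 0.0948). The naive list of 7 summed to 67.6 to 74.9 and 67.8 to 72.1, with overlap. All 8 trophectoderm and amnion markers were under 1 CPM in every library (sums of 2.48 to 3.42). The fibroblast list of 6 summed to 86.7 to 104, mostly COL1A2 (60.7 to 81.0), with COL3A1, DCN and LUM under 1, and its ranges overlapped between groups. The primed list summed to 211 to 241 in knockdown and 195 to 224 in control libraries. Germ layer genes, 7 of 8 with a row, summed to 17.3 to 18.4 and 14.6 to 16.6, without overlap. Most of this sum was MIXL1 (9.94 to 14.1, edgeR adjusted p = 0.403). Of all single genes tested, 18.9% had groups that did not overlap. The part of these marker levels in the results was not tested.

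No respiratory chain gene passed the test for a change after the knockdown. Of the 55 members with enough counts to test, 0 passed edgeR's quasi-likelihood test at a Benjamini-Hochberg adjusted p of 0.05, where 0.786% of all 19721 genes tested did (155 genes; 0.137% higher and 0.649% lower). The smallest adjusted p of a member was 0.142, for NDUFS4, a subunit of the matrix arm of complex I. At an unadjusted p of 0.05, 3 members passed, 1 higher and 2 lower (5.45%), where 14.3% of all genes did (6.68% higher and 7.57% lower). DESeq2's Wald test called 1 member (NDUFS4), where it called 2.72% of all genes. For limma-voom these were 0 members and 0.882% of all genes. Bulk counts of this kind cannot tell less RNA per cell from fewer cells of a type.

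The intervals were narrow enough to bound the changes. The 95% interval of the log2 fold change (knockdown minus control) lay wholly within 0.5 of 0 for 49 of 55 members (89.1%), where it did for 57.3% of all genes tested. All 35 members with a mean count of at least 1000 were inside this bound. The 6 members whose intervals reached past it were NDUFB6 and NDUFS7 of complex I and COX6A1, COX6B2, COX7A1 and COX7B2 of complex IV. The median log2 fold change was 0.01 over the members and 0.02 over all genes, with members from -0.52 to 0.24. The median SE was 0.08 for members and 0.12 for all genes tested. A smaller SE narrows the interval, so the larger share of members within the bound does not by itself mean smaller changes. Of the 55 members, 33 were above 0 (60%) and 22 below, where 54.4% of all genes were above.

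**Figure D1:**
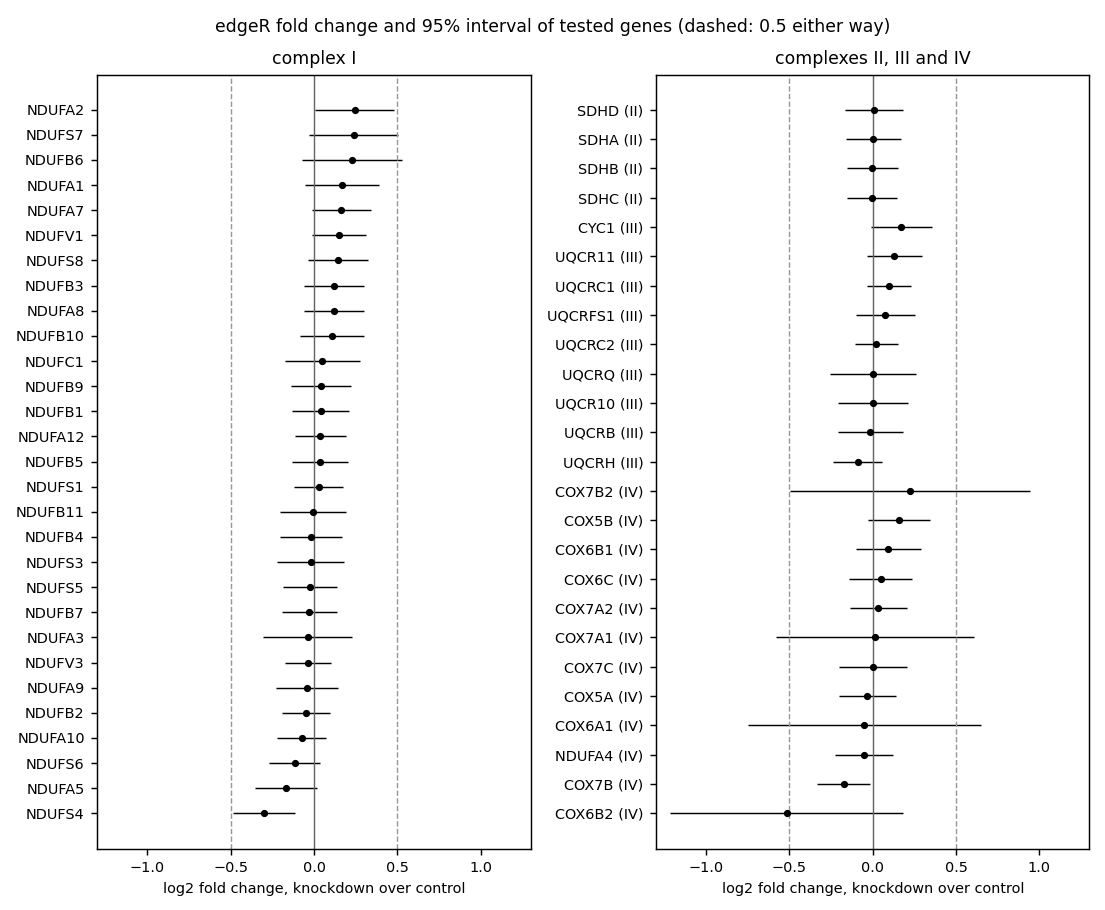
Log2 fold change (knockdown minus control, horizontal axis) with its 95% interval for the tested genes of complexes I to IV (1 gene is not drawn), with dashed lines at 0.5 on either side of 0. In complexes I to III NDUFB6 and NDUFS7 reach past a dashed line, NDUFS4 and NDUFA2 have the points farthest from 0, and the longest intervals of the plot belong to the low-count genes COX6A1, COX6B2, COX7A1 and COX7B2.

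The complexes were alike in their medians. The median log2 fold change was 0.04 over the 30 tested members of complex I, 0.00 over the 4 of complex II, 0.02 over the 9 of complex III and 0.01 over the 12 of complex IV. Summed TMM-scaled CPM of complex I was 1217, 1286 and 1169 in the knockdown libraries and 1235, 1209 and 1211 in the controls, in the order a, b, c used throughout (means 1224 ± 59.3 and 1218 ± 14.4, SD, n = 3). Complex II summed to 307, 325 and 282 against 302, 311 and 301 (305 ± 21.6 and 305 ± 5.60). For complex III the sums were 774, 803 and 707 against 750, 758 and 739 (762 ± 49.1 and 749 ± 9.38). For complex IV they were 560, 564 and 464 against 527, 531 and 528 (529 ± 56.6 and 529 ± 1.89). In each complex the 3 control libraries lay inside the range of the knockdown libraries, so the group means differed by less than the spread within the knockdown group.

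Levels between genes were compared per length, as TMM-scaled CPM per kb of the gene's exons in GENCODE 29. In complex I the highest mean level over all libraries was that of NDUFS5 at 113 per kb, an accessory subunit of the membrane arm. In complex II the anchors marked both ends, SDHD at 26.6 and SDHC at 7.02. UQCRH, the hinge protein beside cytochrome c1, was highest in complex III at 126, and UQCRB lowest at 8.07. The low ranks of SDHC and UQCRB depend on the exon length used, 14160 and 9715 bases. Without division by length, SDHC had the highest mean TMM-scaled CPM of complex II (99.3 in knockdown and 99.6 in control). UQCRB, at 77.9 and 78.8, was then above UQCRQ, at 17.5 and 17.6. In complex IV the highest was COX6B1 at 67.2, followed by COX7C at 59.1 and COX5A at 54.8.

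**Figure D2:**
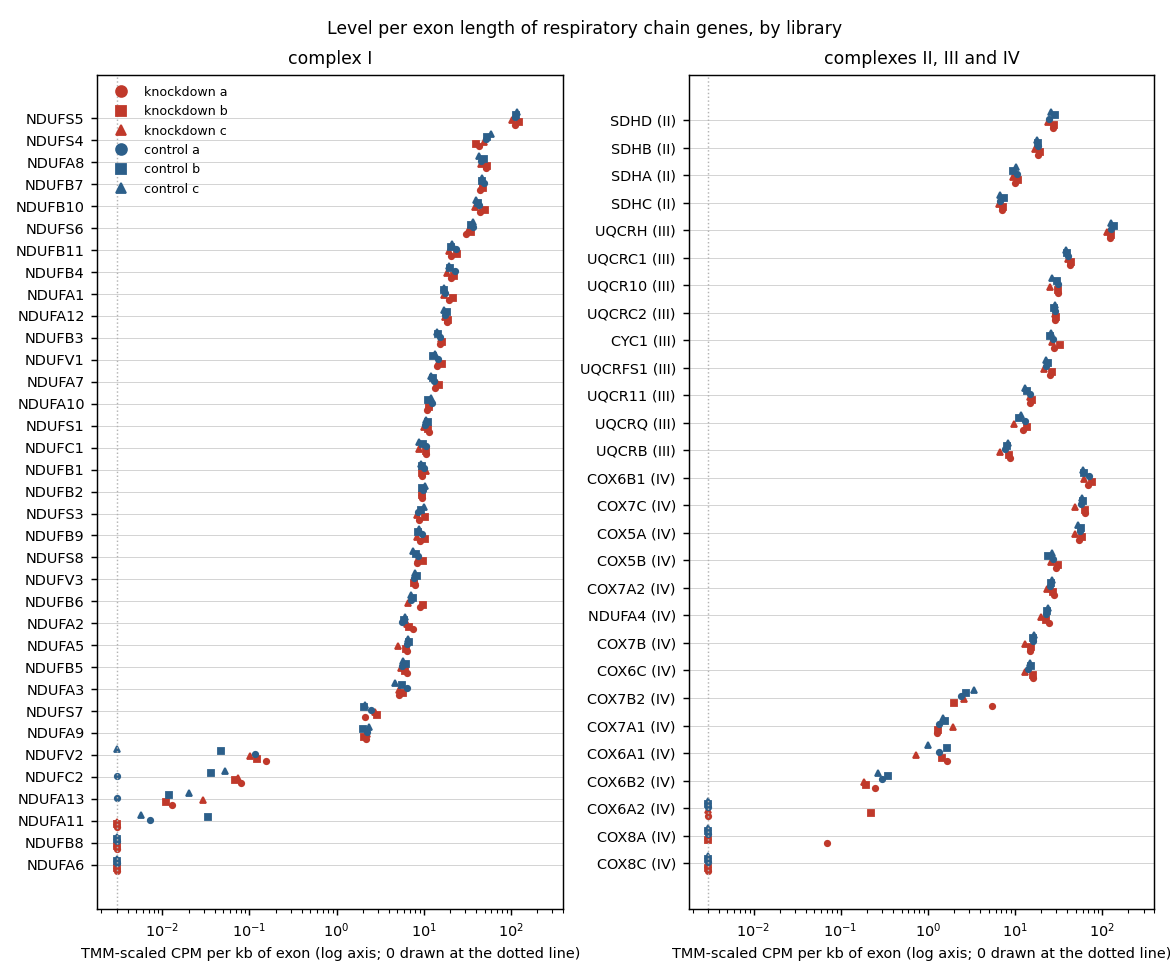
Level of the respiratory chain genes (1 is not drawn) on a log axis (TMM-scaled CPM per kb of exon) in the 6 libraries, grouped by complex, with knockdown and control libraries in separate colours. Knockdown and control points lie on top of each other for most genes, and genes with no count in a library are drawn on the dotted line.

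Promoter sequence was read from RefSeq (GRCh38.p14), which held 53 of the 64 members, as 250 bases before to 50 after the start. NRF1 (nuclear respiratory factor 1) and the ETS factor GABPA are textbook activators of respiratory genes, and YY1 binds near the starts of many. Exact matches were sought on both strands, each motif by itself. The NRF1 motif CGCATGCG stood in 6 of 53 members (11.3%), 2.84% of the 16423 tested genes with a promoter and 2.02% of all 35116 promoters. The ETS motif CCGGAAG stood in 14 (26.4%, 14.1% and 10.3%). The YY1 motif AAGATGGCG stood in 7 (13.2%, 2.79% and 1.75%), and the SP motif GGGCGG in 30 (56.6%, 61.7% and 45%). Median GC content was 61% in the members and 64% in tested genes. A match describes letters in a window, not a bound site.

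The windows below are the 120 bases just before the start, 5′ to 3′ on the gene's strand. Matches to the NRF1, ETS or YY1 motif that lie wholly inside a window are in capitals. NDUFS6, NDUFS7 and SDHD show the NRF1 motif, and SDHD, UQCRH and COX5B the ETS motif. NDUFS4 and COX7B, the members with the smallest p, show none of these motifs here (a YY1 match in NDUFS4 begins at base 22 after the start). Lacking each motif was also the usual case in the windows from 250 bases before to 50 after the start. There the NRF1 motif stood in 6 of 53 members, the ETS motif in 14 and the YY1 motif in 7. Whether a match goes with a gene's change was not tested.
NDUFS4 (chr5:53560519-53560638, plus strand): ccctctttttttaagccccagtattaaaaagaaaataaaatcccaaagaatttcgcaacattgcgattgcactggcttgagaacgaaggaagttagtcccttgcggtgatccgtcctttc
COX7B (chrX:77899348-77899467, plus strand): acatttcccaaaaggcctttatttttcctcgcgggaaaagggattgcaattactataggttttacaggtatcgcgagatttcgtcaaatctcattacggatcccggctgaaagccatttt
NDUFS6 (chr5:1801287-1801406, plus strand): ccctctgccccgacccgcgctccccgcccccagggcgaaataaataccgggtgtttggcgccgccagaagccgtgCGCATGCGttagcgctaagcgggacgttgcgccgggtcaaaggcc
NDUFS7 (chr19:1383787-1383906, plus strand): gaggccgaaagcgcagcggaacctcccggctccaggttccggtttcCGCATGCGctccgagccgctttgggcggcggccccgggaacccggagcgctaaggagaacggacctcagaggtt
SDHD (chr11:112086753-112086872, plus strand): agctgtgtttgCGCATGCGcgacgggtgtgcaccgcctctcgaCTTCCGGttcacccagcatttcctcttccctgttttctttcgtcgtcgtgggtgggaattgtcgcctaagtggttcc
UQCRH (chr1:46303578-46303697, plus strand): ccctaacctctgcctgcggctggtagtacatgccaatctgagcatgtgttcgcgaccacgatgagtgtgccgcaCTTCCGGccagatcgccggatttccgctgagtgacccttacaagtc
COX5B (chr2:97645942-97646061, plus strand): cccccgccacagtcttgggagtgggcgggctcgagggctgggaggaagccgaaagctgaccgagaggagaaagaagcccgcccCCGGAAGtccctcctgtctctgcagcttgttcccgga

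Among the core subunits of the matrix arm of complex I, which hold the FMN and iron-sulphur clusters, 5 of 6 tested were above 0, with a median log2 fold change of 0.15. NDUFV1, which binds NADH and FMN, was at 72.2, 81.9 and 75.1 TMM-scaled CPM in the knockdown libraries and at 74.0, 65.0 and 67.7 in the controls. The groups overlapped through control library a, and the log2 fold change was 0.15 ± 0.07 (SE; edgeR adjusted p = 0.386). NDUFS1, the largest core subunit, was at 140, 138 and 124 against 126, 136 and 131, with full overlap (0.03). NDUFS7, a carrier of an iron-sulphur cluster, was at 16.1, 21.8 and 21.1 against 18.9, 15.4 and 15.8 (0.24 ± 0.12; edgeR adjusted p = 0.411). The group's median was 0.07 without knockdown library b. The seventh core subunit, NDUFV2, was below the filter.

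The accessory subunits of the matrix arm held the estimates of complex I farthest from 0 in both directions, with a median of -0.04 over 8 tested. NDUFS4 (GENCODE 29, GRCh38, chr5:53560633-53683340, plus strand), whose loss causes Leigh syndrome, was at 50.7, 47.5 and 58.2 TMM-scaled CPM in the knockdown libraries and at 60.5, 62.1 and 69.4 in the controls. Every knockdown library lay below every control, the nearest pair being knockdown c and control a. The log2 fold change was -0.30 ± 0.09 (SE; 95% interval -0.49 to -0.11; unadjusted p = 0.00438 and adjusted p = 0.142 in edgeR's quasi-likelihood test). In 4 of 18 alternative analyses it passed the adjusted threshold, and it was below 0 in all 18. Those 4 also called more of all genes than the 0.786% of the reported analysis. The shares were 3.29% with no low-count filter, 2.72% with DESeq2's Wald test, 1.99% with the replicate block and 6.4% without knockdown library c. In the last, the log2 fold change of NDUFS4 was -0.40 (edgeR adjusted p = 0.0115).

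NDUFA2 (chr5:140638740-140647785, minus strand), a small thioredoxin-like subunit, was at 11.3, 10.04 and 9.69 against 8.37, 8.86 and 9.001, again without overlap but in the other direction, with every knockdown library higher (0.24 ± 0.11; 95% interval 0.01 to 0.48; edgeR adjusted p = 0.339). NDUFA7 was likewise separate, at 19.2, 21.0 and 20.0 against 18.5, 18.04 and 17.3 (0.16 ± 0.08, edgeR adjusted p = 0.393). It shares 32.3% of its exon bases with another gene on the same strand, so its counts are less certain. NDUFA5 was at 63.0, 62.0 and 49.9 against 64.03, 67.5 and 65.2, without overlap and with knockdown library c far below the rest (-0.17 ± 0.09; edgeR adjusted p = 0.403). Neighbouring subunits of one arm thus lay on both sides of 0, none past the threshold. The 16 tested accessory subunits of the membrane arm had a median of 0.04, and NDUFB3 was the only one of them whose groups did not overlap, at 17.1, 18.1 and 17.5 against 16.9, 16.1 and 15.6 (0.12 ± 0.08).

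**Figure D3:**
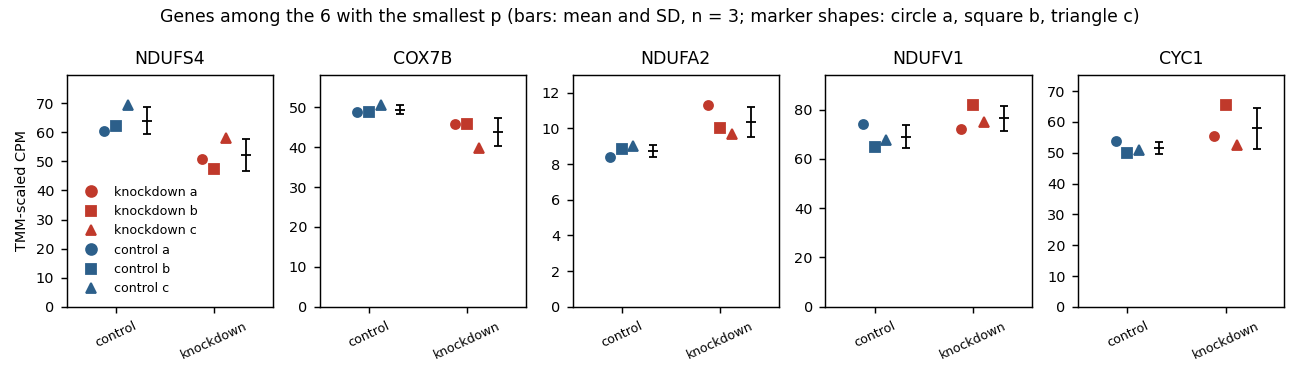
TMM-scaled CPM of 5 of the 6 tested members with the smallest p (NDUFS4, COX7B, NDUFA2, NDUFV1 and CYC1) in each library, with the mean and SD of the 3 libraries of each group. Knockdown points lie below all controls for NDUFS4 and COX7B and above all controls for NDUFA2, while NDUFV1 and CYC1 overlap.

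Complex II, which is also succinate dehydrogenase of the citric acid cycle, gave estimates between 0.00 and 0.01 on the log2 scale. The flavoprotein SDHA was at 83.4, 92.1 and 79.4 against 89.8, 78.9 and 85.7 TMM-scaled CPM, with a log2 fold change of 0.00 (95% interval -0.16 to 0.17). Its pseudogene rows SDHAP1 and SDHAP3 held more counts than SDHA itself (28818 against 15566 over all libraries), so its level is uncertain. The iron-sulphur subunit SDHB was at 44.9, 48.2 and 41.6 against 45.4, 44.9 and 44.6, with an interval of -0.16 to 0.15. The anchors SDHC and SDHD had estimates of 0.00 and 0.01, and in all 4 genes the groups overlapped.

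In complex III both electron-carrying subunits had estimates above 0, with a median of 0.12, and neither passed the test. Without knockdown library b the median was 0.03. CYC1, cytochrome c1, was at 55.4, 65.6 and 52.7 against 53.8, 50.1 and 50.8, the highest value being knockdown library b (0.17 ± 0.08; edgeR adjusted p = 0.387). UQCRFS1, the Rieske protein, was at 88.7, 92.8 and 74.6 against 79.4, 84.6 and 79.3, with knockdown library c the lowest of the 6 (0.07). UQCRC1, a core protein, was at 138, 142 and 132 against 132, 127 and 125, without overlap (0.10 ± 0.06; edgeR adjusted p = 0.509). UQCRC2, the other core protein, had an estimate of 0.02. The small subunits had a median of 0.00, from UQCRH at -0.09 to UQCR11 at 0.13.

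In complex IV the 9 tested subunits found in all tissues had a median of 0.00. COX7B (chrX:77899438-77907373, plus strand) was at 45.7, 45.8 and 39.7 against 48.7, 48.9 and 50.6, all knockdown libraries below all controls (-0.17 ± 0.07; 95% interval -0.33 to -0.01; edgeR adjusted p = 0.310). COX5B was at 43.0, 44.9 and 37.7 against 39.5, 34.3 and 39.0 with overlap (0.16 ± 0.08; edgeR adjusted p = 0.426). COX7C was at 128, 128 and 98.0 against 115, 121 and 118, so its estimate of 0.00 averaged knockdown libraries on both sides of the controls. COX5A, COX7A2, COX6B1 and NDUFA4 had estimates of -0.03, 0.03, 0.09 and -0.05, and their groups overlapped.

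Tissue-restricted isoforms were low throughout. COX6B2, the testis form of COX6B1, was at 0.952, 0.749 and 0.712 against 1.13, 1.32 and 1.02 TMM-scaled CPM, without overlap and with a wide interval (-0.52 ± 0.32, -1.22 to 0.18, edgeR adjusted p = 0.502). It shares 30.9% of its exon bases with another gene on the same strand. The muscle form COX7A1 was at 1.27 to 1.94 and 1.37 to 1.58, and COX7B2 at 1.62 to 4.41 and 1.93 to 2.75, the highest being knockdown library a. The 6 muscle markers summed to 6.96 to 9.53 CPM over both groups, mostly ACTN2 (6.09 to 8.84), with the other 5 under 1 in every library. Over all members, 9 of 55 (16.4%) had groups that did not overlap, 5 higher and 4 lower, where 18.9% of all genes did (9.55% higher and 9.37% lower).

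The members varied together within the knockdown group. Knockdown library b was the highest of the 6 for 27 of 55 members (49.1%; 24.2% of all genes), and knockdown library c the lowest for 27 (49.1%; 16.5% of all genes). Median deviations from a gene's mean over libraries, on the log2 scale, were 0.02, 0.10 and -0.10 in the knockdown libraries and 0.00, -0.01 and -0.03 in the controls. In complex IV they were 0.12, 0.10 and -0.18 against -0.01, 0.04 and 0.02. In library c, 43 of 55 members lay below their mean (78.2%; 48.6% of all genes). Without library c, 42 of 56 members tested were above 0 and 8 had an unadjusted p under 0.05 (7 higher), where 52.1% of all genes were above 0 and 19.3% had such a p (7.39% higher). Without library b, 22 of 55 were above 0 and 4 had such a p (0 higher), where the shares of all genes were 51.2% and 11% (5.74% higher). Calls over all genes at the adjusted threshold moved too, from 155 to 1309 without library c and to 61 without library b. What set libraries b and c apart was not tested.

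**Figure D4:**
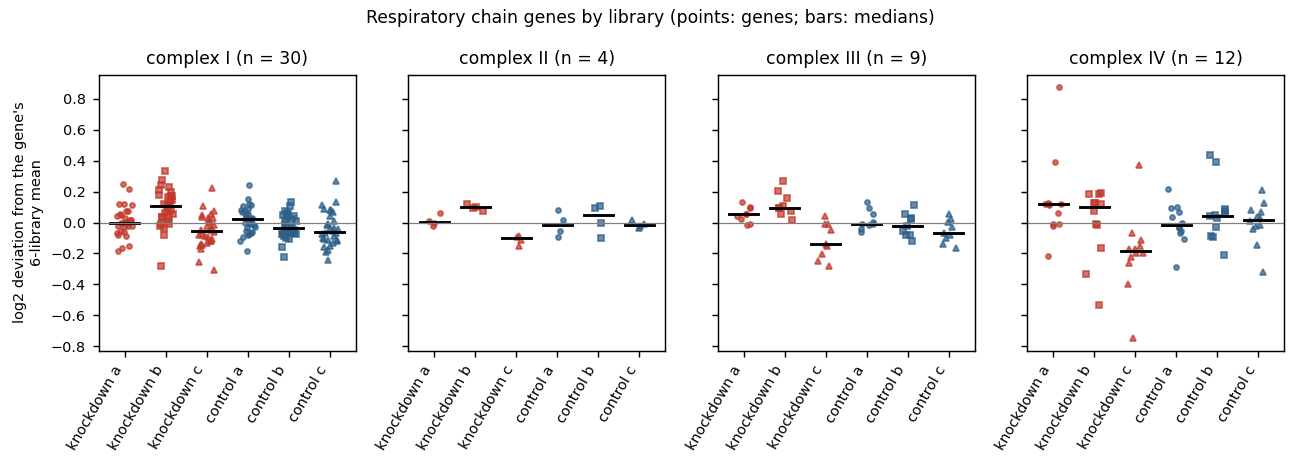
Log2 deviation of each tested member from its own mean over the 6 libraries, by library and complex, with the median marked. Complex IV genes lie mostly above 0 in knockdown libraries a and b and below 0 in knockdown library c, while the control libraries centre near 0.

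The 9 members below the low-count filter were 2 tissue-restricted isoforms and 7 subunits found in all tissues. COX8C was listed at 0 in all libraries and COX6A2 had 4 counts in all. Among the other 7, NDUFB8 and NDUFA6 were at 0 in all libraries, which allows up to 3 counts, or 0.12 CPM in the shallowest library (counting error only). COX8A had 1 count in total, NDUFA11 and NDUFA13 had 7 each, NDUFC2 had 25 and NDUFV2 had 43. COX6A1 passed the filter with 25 to 70 counts per library, whereas its pseudogene row COX6A1P2 held 1609 (83.2% of the counts of the pair), and NDUFV2P1 held 326 (88.3%). Since the counting rule for reads with more than 1 alignment is not given in the sources used here, the levels of both genes are uncertain.

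Of the 7, 6 share exon bases with another gene on the same strand in GENCODE 29, among them NDUFB8 with 33.8% of its exon bases, COX8A with 34.5%, NDUFV2 with 28.4% and NDUFC2, part of a readthrough gene, with 16.3%. NDUFA6 shares none. Among all protein-coding rows sharing at least 10% of their exon bases in this way, 680 of 1380 (49.3%) were below the filter, against 3680 of 16228 (22.7%) of those sharing none. Among members it was 5 of 13 (38.5%) and 3 of 45 (6.67%). Counts near 0 in these rows are therefore not given as absence of the transcript. Whether shared exons account for these rows was not tested.

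Lists of related genes, written with earlier results of these data known, had 0 genes past the adjusted threshold of edgeR's test, as against 0.786% of all genes. Of 15 tested subunits of complex V, the ATP synthase, 12 were above 0 (median 0.07), with 0 under an unadjusted p of 0.05, where 14.3% of all genes were. The median was 0.02 without knockdown library b and 0.13 without knockdown library c, and median deviations were 0.09, 0.13 and -0.12 in the knockdown libraries and -0.04, -0.02 and -0.05 in the controls. The subunit ATP5D (now ATP5F1D) was at 26.8, 29.2 and 29.4 against 27.2, 25.9 and 22.7 (0.18 ± 0.09; edgeR adjusted p = 0.379). ATP5O (now ATP5PO) was at 14.6, 15.9 and 14.2 against 14.1, 12.3 and 13.2 (0.17 ± 0.10; edgeR adjusted p = 0.441). It was the only 1 of the 15 whose groups did not overlap (6.67%, against 18.9% of all genes). It shares 19.6% of its exon bases with another gene on the same strand. The mitochondrial cytochrome c gene CYCS was at 203, 191 and 155 against 167, 184 and 182, with the same low library c (0.04).

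Assembly factors gave the smallest p of these lists. Of 17 tested for complex I, 4 had an unadjusted p under 0.05, 1 higher and 3 lower, where 14.3% of all genes did (6.68% higher and 7.57% lower). Their median was -0.03, and between -0.07 (without control library c) and 0.00 (without knockdown library c) with each library left out. NDUFAF7, a mitochondrial methyltransferase, was at 69.2, 66.1 and 73.2 TMM-scaled CPM against 84.7, 92.3 and 83.5, every knockdown library below every control (-0.32 ± 0.07; unadjusted p = 0.000528 and adjusted p = 0.0588 in edgeR's test; past the threshold in 7 of 18 alternatives). TMEM126B was at 28.7, 25.2 and 29.9 against 31.9, 34.2 and 31.99 (-0.23 ± 0.08; edgeR adjusted p = 0.236). For complex III, TTC19 was at 97.1, 96.5 and 98.5 against 106, 111 and 106 (-0.15 ± 0.06; edgeR adjusted p = 0.297). BCS1L was at 16.3, 17.3 and 18.2 against 20.4, 18.1 and 18.7, with overlap (-0.14 ± 0.09; edgeR adjusted p = 0.493). Of 20 tested for complex IV, 2 had an unadjusted p under 0.05 (7.57% of all genes were lower at this p), both lower: COX10, of heme a synthesis (-0.19 ± 0.08), and COX20 (-0.22 ± 0.10). The 1 tested factor of complex II, SDHAF1, had an estimate of 0.27 ± 0.18.

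Regulators of respiratory genes had a median of 0.03 over 15 tested, with 1 higher and 2 lower at an unadjusted p of 0.05, where 6.68% of all genes were higher and 7.57% lower. With each library left out the median lay between -0.02 (without knockdown library b) and 0.03. TFB1M, which methylates mitochondrial rRNA, was at 39.4, 39.4 and 43.9 against 49.9, 47.4 and 49.99, without overlap (-0.26 ± 0.07; edgeR adjusted p = 0.114; past the threshold in 3 of 18 alternatives). NRF1 was at 77.1, 80.3 and 92.0 against 89.1, 94.6 and 95.9 (-0.17 ± 0.08; edgeR adjusted p = 0.345), and GABPA at 64.6, 63.0 and 58.9 against 64.1, 70.3 and 69.0 (-0.12 ± 0.07). The nuclear receptor ESRRB was low, at 4.69, 3.63 and 2.18 against 2.01, 2.06 and 2.75 (0.62 ± 0.27; edgeR adjusted p = 0.321). For coenzyme Q and cytochrome c, PDSS2 had an estimate of -0.19 ± 0.08 and HCCS, which attaches heme to cytochrome c, 0.27 ± 0.11. NDUFAB1, the acyl carrier protein of complex I, was at 64.8, 64.5 and 61.0 against 70.9, 74.5 and 68.3 (-0.17 ± 0.06; edgeR adjusted p = 0.276), and COX4I1 had an estimate of 0.09.

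Import into the intermembrane space, by which small twin-cysteine subunits reach their place, had a median of 0.18 over 8 tested, with 3 at an unadjusted p of 0.05, all higher, where 6.68% of all genes were higher at this p. TIMM13 was at 40.9, 51.9 and 42.1 against 40.4, 32.6 and 34.8 (0.33 ± 0.10; edgeR adjusted p = 0.186), with knockdown a next to control a. TIMM10 was at 16.1, 17.02 and 14.96 against 12.9, 13.4 and 13.3 (0.28 ± 0.09; edgeR adjusted p = 0.190). The sulfhydryl oxidase GFER, whose alias ALR is unrelated to alpha satellite RNA, was at 4.02, 4.46 and 4.04 against 3.94, 2.995 and 2.84 (0.36 ± 0.18; edgeR adjusted p = 0.386).

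The 13 mitochondrially encoded subunits were all above 0, with a median of 0.30 and 5 under an unadjusted p of 0.05, where 54.4% of all genes were above 0 and 6.68% were higher at this p. Their summed TMM-scaled CPM was 23990, 23913 and 23871 in the knockdown libraries and 23547, 22679 and 16469 in the controls, with control library c well below the rest. Without control library c the median was 0.06. MT-ATP8 was at 62.9, 51.6 and 80.2 against 47.1, 53.6 and 24.5 (0.64 ± 0.23; edgeR adjusted p = 0.236), and MT-ND4L at 176, 153 and 217 against 152, 154 and 80.6 (0.50 ± 0.20; edgeR adjusted p = 0.281). Knockdown library c, the lowest for nuclear subunits, was not low for the mitochondrial ones.

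**Figure D5:**
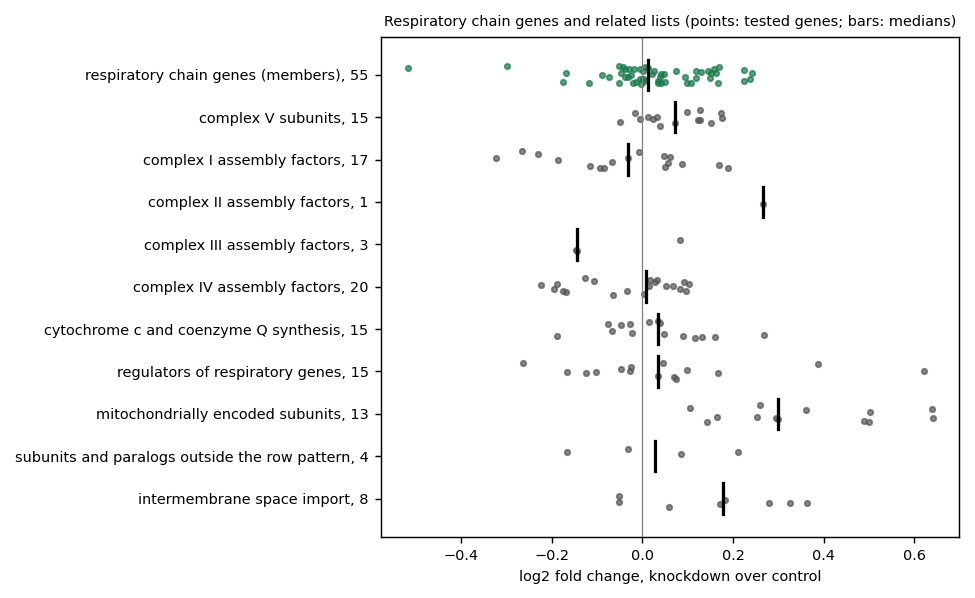
Log2 fold change (knockdown minus control) of each tested respiratory chain gene (top) and each tested gene of the related lists, with the number tested in each label and the median marked. Most genes lie near 0, the mitochondrially encoded subunits all lie above 0, and no gene in any list passed the adjusted threshold.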

How the data were processed

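The authors deposited raw read counts per gene symbol for 6 libraries, made from total RNA with a directional kit per the labels' protocols. The submitters' processing notes name Trimmomatic 0.39, STAR 2.7.8a, featureCounts, Subread 2.14.2 and hg38. The annotation, strand setting and treatment of multiply aligned reads are not given in the sources used here, and they decide the counts of overlapping and copied genes. Counts were tested with edgeR 4.0.16 (R 4.3.3): filterByExpr, TMM scaling and a quasi-likelihood fit with group as the only term. The two-sided p-values were Benjamini-Hochberg adjusted over all 19721 genes tested, at 0.05. Intervals are 95%. The procedure was tested on simulated data. Member symbols were matched to GENCODE 29 for coordinates, exon lengths and shared exons, 64 of 64. Members and lists were chosen with earlier results of these data known. Named genes were the members and list genes with the smallest p (6 of complex I, 2 of complex II, 4 of complex III, 6 of complex IV, 2 per list), defining subunits, paralog pairs and extreme levels per length. CYCS, GABPA, NRF1, GFER, NDUFB3, NDUFB6, NDUFS7, UQCRC2, COX7C and the members below the filter were added after their values were seen. Alternatives used DESeq2 1.42.0, limma 3.58.1, other scalings and filters, thinning, a length trend, a replicate block and each library left out. The YY1 motif was shortened to 9 letters after counts for a 10-letter form had been seen. Values of 1 member are not reported here, although it is in all counts and medians.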

Additional observations from a re-analysis of the deposited data

How the results depend on the processing

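The count of members past the adjusted threshold was 1 in place of 0 with no low-count filter, with DESeq2's Wald test and with the replicate block, and ranged from 0 to 1 with each library left out; NDUFS4 was the gene each time, at adjusted p = 0.00971, 0.0423, 0.0488 and 0.0115, the last without knockdown library c, and the cause was not tested. In the other 14 of 18 alternatives it was 0. Over the related lists, 14 genes passed with no low-count filter, 2 with DESeq2's Wald test, 1 with the robust fit, 1 after thinning, 2 with the replicate block and 1 with the length trend removed, against 0 in the reported analysis; calls over all genes in these were 1064, 536, 212, 151, 393 and 184, against 155. With each library left out the count ranged from 0 to 6, the highest without knockdown library c. The members' median log2 fold change ranged from -0.02 without knockdown library b to 0.07 without knockdown library c. With each library left out, the medians ran from -0.002 to 0.08 in complex I and from -0.06 to 0.03 in complex II. They ran from -0.01 to 0.10 in complex III and from -0.05 to 0.09 in complex IV. These moves were smaller than the SD between library medians, but the libraries left out also set that SD. The comparison therefore cannot show that the medians are stable. Scaling by library size alone put 9 members under an unadjusted p of 0.05 (8 higher), and upper-quartile scaling 6 (5 higher), in place of 3 (1 higher), while the share of all genes was 15.1% (9.57% higher) and 14.7% (8.5% higher) in place of 14.3% (6.68% higher). Correlations of deviations between the knockdown and control libraries of the same letter were 1.23e-05, 0.116 and -0.0251 for a, b and c. Whether the letters mark pairs is not stated in the labels and was not tested. The restriction to members sharing no exon base with another gene, chosen after seeing the data, gave a median of -0.02 for complex I. Intervals were widest for COX6A1, COX6B2, COX7A1 and COX7B2, and the 9 members below the filter have no test; whether depth set this was not tested.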
